A study of Mus musculus with 5 samples.

Results

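The regions described here are H3K9ac peaks that lay just upstream of a transcription start site in STHdh Q111 cells and were present in the peak lists of both DOP-treated and untreated cells. They were selected on their positions alone. A peak was taken when its 200 bp interval overlapped a peak of the other list by at least 1 bp, and when its centre lay 1 to 1000 bp upstream of the nearest start site of a protein-coding transcript, on the strand of that gene (GENCODE vM1, mm9). Peaks were left out when a protein-coding gene on the opposite strand started within 1 kb of the same start site. Of the 34286 peaks called in DOP-treated cells (the DOP list), 4485 met these criteria, or 13.1% (95% Wilson interval 12.7% to 13.4%). Of the 33355 peaks called in untreated cells (the untreated list), 4497 did so, or 13.5%. These intervals cover counting error only. Among other shared peaks 1 to 1000 bp upstream, 481 DOP-treated and 484 untreated peaks lay at divergent gene pairs and were left out. A further 1423 upstream peaks of the DOP list and 918 of the untreated list had no overlapping peak in the other list. Presence in both lists and position chose the regions, so neither is a finding.

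STHdh Q111 cells are conditionally immortalised striatal progenitor cells of the mouse, labelled C57BL/6, that are homozygous for mutant huntingtin (STHdhQ111/Q111). All cells were kept in serum-free medium for 24 h, which held either vehicle (untreated, labelled SST) or 4 mM 4-deoxypyridoxine hydrochloride (DOP). DOP inhibits the SPL enzyme, sphingosine-1-phosphate lyase. Chromatin was immunoprecipitated with an antibody against H3K9ac from 2 samples of each group, and 1 IgG sample of serum-starved Q111 cells served as the negative control and was not analysed here. All samples come from 1 cell line, and the groups share the mutant genotype and the serum starvation. Only 1 peak list per condition was analysed, without replicates, so no difference between the conditions could be tested. Every comparison of the lists below is a description of these lists. The score that each list gives to a peak is the authors' value, the lists do not define it, and the depth behind it is unknown.

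H3K9ac is an acetyl mark on histone H3 that acetyltransferases place and histone deacetylases remove. It marks the nucleosomes on both sides of an active start site, which itself tends to be free of nucleosomes. Mammalian start sites often lie in CpG islands, stretches rich in G, C and CpG, and their proximal promoters can carry a GC box (GGGCGG, bound by Sp1 and its relatives), a CCAAT box (bound by NF-Y) or a TATA box (TATAAA). A peak centred upstream therefore marks acetylated nucleosomes on the promoter side of that start site, and a peak downstream those in the first part of the transcribed region. A gene can have several start sites, so a peak upstream of one can lie downstream of another.

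The sequences of 6 upstream peaks of the DOP list are printed here because they span the range described in the following paragraphs. Each is 200 bp of mm9, written 5' to 3' on the strand of the gene, and capitals mark GC, CCAAT and TATA boxes found on either strand. Tmpo lies at chr10:90633650-90633849 (minus strand, in an intron of Tmpo) and Mll2 at chr15:98701871-98702070 (minus strand, outside annotated genes). Outside repeated sequence these 2 ranked highest by the lower of their percentiles in both lists. Copg2, at chr6:30846385-30846584 (minus strand, in an intron of Copg2), was among the peaks richest in G and C. Pigv, at chr4:133228676-133228875 (minus strand, outside annotated genes), had one of the largest rises in rank, and Gkap1, at chr13:58376241-58376440 (minus strand, outside annotated genes), one of the largest falls. Gm10718, at chr9:3023447-3023646 (plus strand, within the non-coding gene Gm16869), came first by the lower of its percentiles in both lists and lies in repeated sequence.
Tmpo: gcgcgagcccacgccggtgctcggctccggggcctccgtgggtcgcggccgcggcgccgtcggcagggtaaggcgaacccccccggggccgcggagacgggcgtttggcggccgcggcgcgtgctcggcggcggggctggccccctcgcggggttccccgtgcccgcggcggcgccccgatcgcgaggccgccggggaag
Mll2: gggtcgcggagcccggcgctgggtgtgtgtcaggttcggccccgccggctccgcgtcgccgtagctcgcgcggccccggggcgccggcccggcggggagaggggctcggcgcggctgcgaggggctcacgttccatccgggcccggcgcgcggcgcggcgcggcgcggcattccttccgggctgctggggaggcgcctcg
Copg2: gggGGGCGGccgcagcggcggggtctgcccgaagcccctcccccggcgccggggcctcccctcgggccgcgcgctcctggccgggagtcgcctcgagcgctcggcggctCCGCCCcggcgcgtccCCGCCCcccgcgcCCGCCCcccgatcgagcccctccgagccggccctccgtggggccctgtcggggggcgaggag
Pigv: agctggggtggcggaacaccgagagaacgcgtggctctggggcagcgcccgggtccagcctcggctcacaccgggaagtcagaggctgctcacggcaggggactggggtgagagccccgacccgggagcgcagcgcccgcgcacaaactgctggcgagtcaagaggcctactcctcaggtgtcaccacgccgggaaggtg
Gkap1: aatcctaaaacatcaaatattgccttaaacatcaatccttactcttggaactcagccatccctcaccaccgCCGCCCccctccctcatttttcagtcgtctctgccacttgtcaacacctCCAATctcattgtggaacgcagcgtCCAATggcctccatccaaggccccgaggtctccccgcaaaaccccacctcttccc
Gm10718: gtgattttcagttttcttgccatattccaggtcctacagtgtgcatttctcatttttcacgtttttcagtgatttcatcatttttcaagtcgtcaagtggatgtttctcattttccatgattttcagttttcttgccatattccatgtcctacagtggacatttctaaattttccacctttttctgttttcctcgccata
The Copg2 peak was 86.0% G and C and held 33 CpG dinucleotides and 4 GC boxes. The Tmpo and Mll2 peaks were 84.0% and 82.5% G and C, with 40 and 38 CpG, and held no GC, CCAAT or TATA box. The Gkap1 peak, at 53.0% G and C, held 7 CpG, 2 CCAAT boxes and 1 GC box. The Gm10718 peak was 36.0% G and C with 3 CpG.

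Within the window of 1 to 1000 bp that the selection set, the upstream peaks were not spread evenly. Their centres had a median distance of 335 bp in both lists, with quartiles of 182 and 476 bp in the DOP list and 177 and 476 bp in the untreated list. The fullest stretch was 301 to 400 bp upstream, which held 888 DOP-treated and 881 untreated peaks. A second, smaller gathering of 645 and 665 peaks lay within 100 bp of the start site. Beyond 600 bp the peaks thinned, to 75 and 89 in the last 100 bp before the limit. Shared peaks downstream of start sites were more numerous, as 14708 DOP-treated and 15008 untreated peaks lay within 1000 bp. Their fullest stretch was nearer, at 201 to 300 bp, and they gathered again at 601 to 700 bp, with 1201 and 1203 peaks. Within 100 bp of the start site lay 8.17% of the downstream and 14.4% of the upstream peaks of the DOP list.

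**Figure D1:**
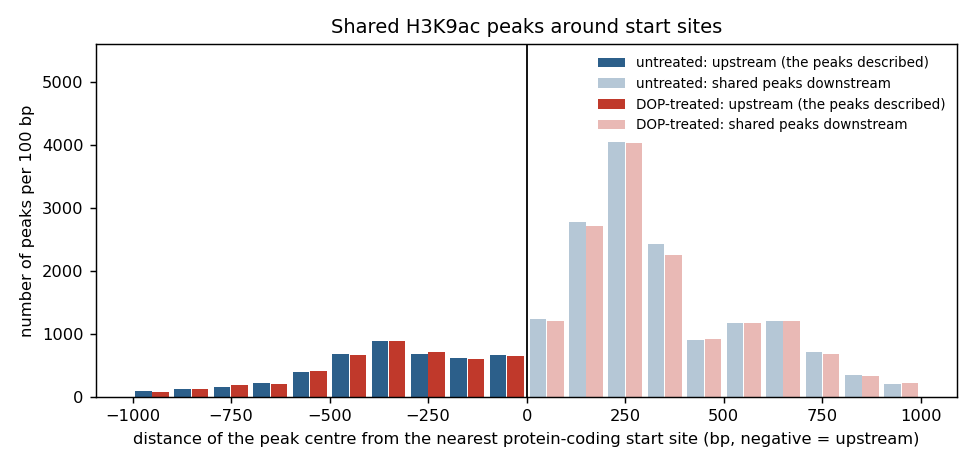
Number of shared H3K9ac peaks per 100 bp of distance between the peak centre and the nearest protein-coding start site, in bp, for the untreated list (blue) and the DOP list (red). Solid bars are the upstream peaks, highest at 301 to 400 bp with 888 DOP-treated and 881 untreated peaks, and pale bars are the shared downstream peaks.

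Many upstream peaks formed one flank of a pair around the start site. Each peak was counted only at its nearest start site, so a downstream peak nearer to another start site was missed here. In the DOP list, 1819 of 3822 start sites with an upstream peak also had a shared downstream peak within 1000 bp, or 47.6% (46.0% to 49.2%). In the untreated list 1792 of 3839 start sites did, or 46.7% (45.1% to 48.3%). The nearest centres on the 2 sides were a median of 572 bp apart in the DOP list and 575 bp apart in the untreated list. At such start sites the upstream centre lay a median of 314 bp before the start site and the downstream centre 252 bp after it in the DOP list, against 316 and 251 bp in the untreated list.

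The upstream peaks belonged to 3495 genes in the DOP list and 3489 in the untreated list. Of these, 3295 genes had an upstream peak in both lists, 200 had one in DOP-treated cells alone and 194 in untreated cells alone. The 3295 genes are 14.7% of the 22380 annotated protein-coding genes, and 31.0% of the 10612 genes with any shared peak within 1 kb of a start site. Most genes had a single upstream peak, 2653 in the DOP list and 2640 in the untreated list, while 716 and 714 had 2. Genes of one list only could differ by a short displacement across a limit, as the highest-ranking ones did, which were named after their values were seen. At Ap1g1, an adaptor subunit of clathrin coats, the DOP-treated centre lay 89 bp upstream with a score of 2158.4, and the untreated centre that overlapped it lay 12 bp downstream with a score of 3145.2. At Zbtb2, a zinc finger repressor, the order was the other way, with the untreated centre 7 bp upstream and the DOP-treated centre 21 bp downstream.

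Peaks of both lists were then matched where each was the nearest overlapping peak of the other and both met the criteria, which gave 3903 pairs at 3263 genes. Of the 582 upstream peaks of the DOP list without such a pair, 328 overlapped an untreated peak that was nearer to another DOP peak, 131 overlapped one centred at or downstream of the same start site, and 109 one nearest to another start site. Because the 200 bp intervals of a pair had to overlap, their centres could only lie less than 200 bp apart. Within this limit the centres were a median of 27 bp apart (quartiles 12 and 54 bp). In 68 pairs the centres coincided, 72.6% of pairs lay within 50 bp, and 8.20% were more than 100 bp apart. There was no marked direction to the displacement. Of the 3835 pairs whose centres differed, the DOP-treated centre was nearer the start site in 1852, or 48.3% (46.7% to 49.9%), and further upstream in 1983. The interval lies below an even split by little, and it takes no account of error between samples.

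Upstream peaks ranked in the middle of their lists. Their median score was 432.2 in the DOP list and 380.1 in the untreated list, at median percentiles of 51.5 and 47.9. Shared downstream peaks stood higher, at median percentiles of 66.6 and 64.9, and shared peaks more than 10 kb from a start site lower, at 26.1 and 22.6. The rank depended on the distance. Peaks within 100 bp of the start site had a median percentile of 66.5 in the DOP list, those 301 to 400 bp upstream 49.1, and those 801 to 1000 bp upstream 42.4. It also moved with base composition, from a median percentile of 33.6 in upstream peaks under 50% G and C to 74.5 in those of at least 70%. Within each of 4 classes of G and C content, upstream peaks ranked below downstream peaks in both lists, for example at 47.4 against 54.9 in the DOP list at 50% to 60%. Across the 3903 pairs the percentiles in both lists had a Spearman correlation of 0.897, and 71.7% of pairs differed by at most 10 points. This describes regions of 2 lists that share the caller and the genome, and regions are not replicates.

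**Figure D2:**
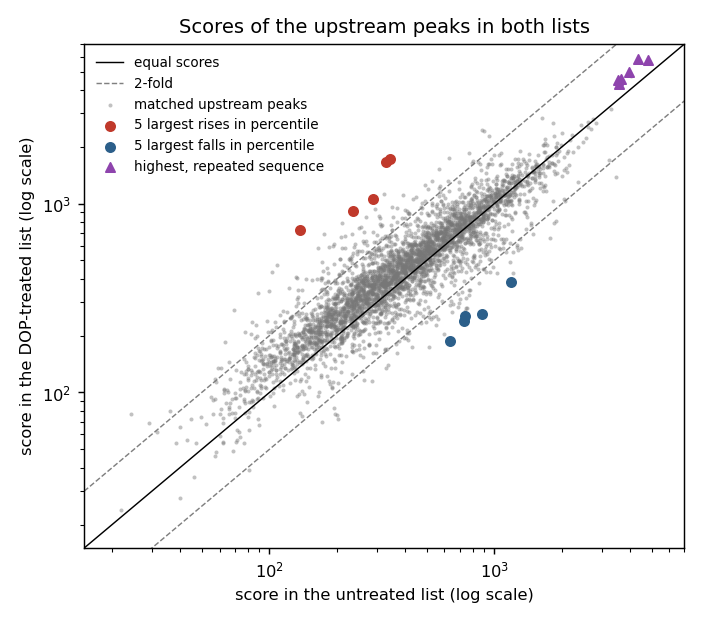
Score of each of the 3903 matched upstream peaks in the untreated list (horizontal) and in the DOP list (vertical), both on log scales in the authors' units. Red and blue points are the 5 largest rises and 5 largest falls in percentile, and purple triangles the highest peaks in repeated sequence. The solid line marks equal scores and the dashed lines a 2-fold difference, and the points lie somewhat above the solid line, with a median ratio of 1.14.

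Scores of upstream peaks were slightly higher in the DOP list. The median ratio of DOP-treated to untreated score was 1.14, a log2 ratio of 0.19 (quartiles -0.03 and 0.43, SD 0.46 over pairs), and 72.0% of pairs scored higher in the DOP list. At shared downstream peaks the median ratio was 1.07 and 61.5% of pairs scored higher. Over all 24754 matched shared peaks the ratio was 1.09, and beyond 10 kb from a start site it was 1.16. The depth behind either list is unknown, so the ratios were read against one another. At 1625 start sites that had matched peaks on both sides, the ratio was larger upstream at 967, or 59.5% (57.1% to 61.9%). The log2 ratio there was larger upstream by a median of 0.11, with an SD of 0.58 over start sites, so single start sites varied far more than this difference.

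The score ratio varied with distance, score and base composition. It was 1.07 within 100 bp upstream, 1.18 at 301 to 400 bp and 1.14 at 601 to 1000 bp, while the downstream ratios lay between 1.03 and 1.09 at all distances. Weak peaks had larger ratios than strong peaks on both sides. For mean scores under 200 the ratio was 1.27 upstream and 1.20 downstream, and for mean scores over 800 it was 1.04 and 1.02. The upstream ratio exceeded the downstream ratio in each of the 4 score classes. By base composition it was 1.19 upstream and 1.05 downstream under 50% G and C, 1.17 and 1.09 at 50% to 60%, 1.13 and 1.08 at 60% to 70%, and 1.04 on both sides from 70%. Upstream peaks of high G and C content thus showed no excess over downstream peaks.

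Counted over genes, the promoter side held a slightly larger share of the score in the DOP list. For each of the 3295 genes, the scores of all peaks within 1 kb upstream were divided by those of all peaks within 1 kb on either side. The side of a peak was taken from its nearest start site. The median upstream share was 33.9% in the DOP list and 32.2% in the untreated list. It was higher in the DOP list at 2023 genes, lower at 1088 and equal at 184, and the median difference was 1.54 points (quartiles -1.5 and 4.8). The 184 equal genes had their whole score upstream in both lists.

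Large differences at single peaks were few, and they were most frequent where the lists had different numbers of peaks nearby. Of the 3903 pairs, 159 scored at least 2-fold higher in the DOP list, or 4.07%, against 4.18% of all matched shared peaks. At least 2-fold lower scores were found in 70 pairs, or 1.79%, against 1.76% of all matched shared peaks. Both shares are near those of all shared peaks. In 2790 pairs both lists had the same number of peaks within 500 bp of the DOP-treated centre, in 560 the DOP list had more, and in 553 the untreated list had more. Where the untreated list had more peaks, the median ratio of the single peak was 1.43 and 108 pairs were at least 2-fold higher. Where the DOP list had more, the median ratio was 0.873 and 47 pairs were at least 2-fold lower. After the scores of all peaks within 500 bp were summed, 95 pairs were at least 2-fold higher and 56 at least 2-fold lower, of which 77 and 51 were regions where the list with the higher sum had more peaks. By both measures at once, 14 pairs were at least 2-fold higher and 4 at least 2-fold lower. Among pairs with the same number of peaks, 50 were at least 2-fold higher and 22 at least 2-fold lower, and the median ratio of 1.15 upstream stood beside 1.06 downstream.

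**Figure D3:**
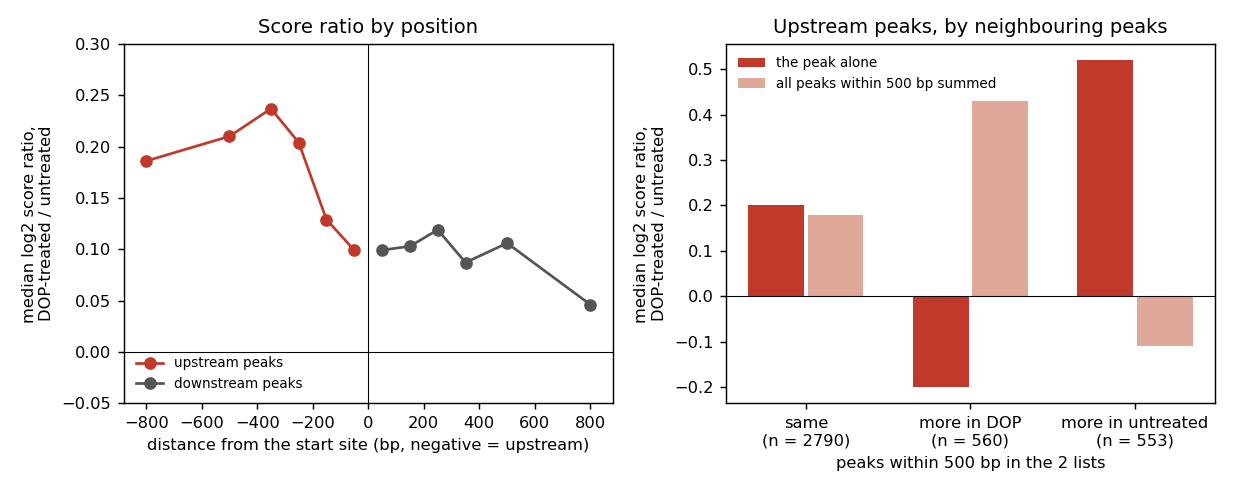
Left, median log2 ratio of DOP-treated to untreated score against distance from the start site in bp, for upstream peaks (red) and shared downstream peaks (grey). Upstream values rise from 0.10 within 100 bp to 0.24 at 301 to 400 bp. Right, median log2 ratio of the upstream peak alone (dark) and of all peaks within 500 bp summed (pale), by which list had more peaks there.

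The largest rises in rank are given with the number of peaks nearby, whose part in them was not tested. H2afy2, which encodes a macroH2A histone, had a peak 25 bp upstream in the DOP list with a score of 729.0 and one 32 bp upstream in the untreated list with a score of 136.3, a rise of 58.9 percentile points. Within 500 bp there were 2 DOP-treated and 3 untreated peaks, and their summed scores of 2642.1 and 2050.3 differed only 1.29-fold. At Pigv, a mannosyltransferase of GPI anchor synthesis whose sequence is printed above, the score was 1661.0 in the DOP list and 330.8 in the untreated list. The summed scores there differed 1.17-fold, again with 2 against 3 peaks. Tmem167b rose from 234.2 to 916.0 and Gm11175, whose peak lies in an exon of Jund, from 342.2 to 1719.0, each with 2 DOP-treated and 3 untreated peaks nearby. The summed ratios at these were 1.21 and 1.80. Schip1 rose from 289.3 to 1062.0 with 2 peaks in both lists and a summed ratio of 1.22.

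At 4 of the 5 largest falls in rank the DOP list had 2 peaks within 500 bp and the untreated list 1, and at Fam193a both had 2. Sass6, a gene of centriole assembly, scored 261.5 in the DOP list and 880.0 in the untreated list, a fall of 52.1 percentile points. The region held 2 DOP-treated peaks and 1 untreated peak, and the summed ratio was 0.976. Pds5a, a cohesin regulator, scored 254.6 against 738.0 with a summed ratio of 1.11, and Fam193a 385.3 against 1186.0 with a summed ratio of 0.817. Gkap1 and Tm9sf3 kept part of their fall. At Gkap1, whose sequence with 2 CCAAT boxes is printed above, the scores were 186.8 and 634.0 and the summed ratio was 0.647. At Tm9sf3 they were 239.9 and 736.0, with a summed ratio of 0.561.

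The pairs that differed at least 2-fold by both measures were named after their values were seen. At Supv3l1, a mitochondrial RNA helicase, the score was 400.0 in the DOP list and 145.0 in the untreated list, with a single peak within 500 bp in both. At Ino80, an ATPase of chromatin remodelling, it was 562.0 against 258.7, and at Smad6, an inhibitor of BMP signalling, 724.0 against 352.2. Lower scores in the DOP list were found at Tardbp, an RNA-binding protein gene, with 314.0 against 707.0, and at Cab39, a scaffold of kinase complexes, with 433.7 against 957.3. Golga1, a Golgi protein, scored 297.5 against 695.7. At Tardbp the centres lay 185 and 10 bp upstream. None of these values has a replicate.

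The highest-scoring upstream peaks were chosen for a high rank in both lists, so a similar rank in both is not a finding. The 10 genes with the highest peaks by the lower of both percentiles were Gm10718, Gm10722, Gm10721, Gm10719, Gm11168, Gm10720, Tmpo, Mll2, Ywhaz and Zfhx3. The first 6 are predicted genes between positions 3000464 and 3023646 at the start of the assembled chromosome 9, and their DOP scores ran from 4317.5 to 5819.5 and their untreated scores from 3535.1 to 4836.0. At least 93.8% of the 24-base words in these DOP-treated peaks occurred more than once in the assembly, in a median of 24 to 68 copies, against 0% at Tmpo, Mll2, Ywhaz and Zfhx3. The ratio of DOP-treated to untreated score at these 6 peaks was between 1.19 and 1.34. Whether reads from other copies entered these scores was not tested. Over all upstream peaks of the DOP list, 84.6% held no repeated word and 87 peaks, or 1.94%, had at least 50% of their words repeated, 15 of them on chromosome 9 before position 3100000.

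Outside repeated sequence the 10 strongest upstream peaks by the lower percentile had a G and C content of 66.5% to 84.0%. Their high rank in both lists was set by this choice. At Tmpo, which encodes a lamin-binding protein of the nuclear envelope, the centre lay 542 bp upstream with a score of 3153.1 in the DOP list and 535 bp upstream with 3312.1 in the untreated list. Mll2, a methyltransferase of histone H3, scored 2819.4 and 2755.7. Ywhaz, an adaptor that binds phosphorylated proteins, scored 2663.1 and 2835.9, and Zfhx3, a homeobox zinc finger factor, 2693.0 and 2597.0. At these 4 genes the score ratio was between 0.939 and 1.04. Among the next by rank, taken after the values were seen, were Arid2, a subunit of a SWI/SNF chromatin remodeller, with 2490.0 and 2700.0, and the kinase genes Dyrk1a, Nuak1 and Hipk3. Dyrk1a scored 2232.6 and 2563.0, and Nuak1 2294.4 and 2220.7. No pair among them differed 2-fold, which the choice by the lower percentile favoured.

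Upstream peaks were poorer in G and C than downstream peaks. Their median G and C content was 58.5% in both lists (quartiles 51.0% and 67.0% in the DOP list), against 65.0% for shared downstream peaks and 55.0% for shared peaks beyond 10 kb. The ratio of observed to expected CpG had a median of 0.68 upstream, 0.75 downstream and 0.45 beyond 10 kb in the DOP list. With limits of at least 50% G and C and a ratio of at least 0.6, 53.1% of upstream peaks and 66.9% of downstream peaks were CpG-rich. Content fell with distance from the start site, from a median of 69% within 100 bp to 55.0% at 301 to 400 bp and 53.5% at 801 to 1000 bp. At the start sites with an upstream peak in both lists the G and C content extended further upstream than elsewhere. Between 400 and 300 bp upstream it averaged 57.9% at these 3533 start sites, 51.2% at the 7306 start sites with only downstream shared peaks, and 49.9% at all 45975 start sites. Within 100 bp downstream the first 2 groups averaged 67.3% and 67.2%.

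GC and CCAAT boxes were most frequent between the upstream and downstream peaks, next to the start site. All motifs were searched as exact letters on both strands, and matches of GGGCGG and ATGGCGG can share bases. In the last 100 bp before the start site, 52.1% of start sites with an upstream peak held GGGCGG, against 49.6% of those with only downstream peaks and 30.3% of all start sites. CCAAT was found there in 20.5%, 18.5% and 17.6%. In the 200 bp of the upstream peaks themselves, GGGCGG was found in 31.3% of DOP-treated peaks (29.9% to 32.6%), against 37.3% of downstream peaks (36.5% to 38.1%) and 32.1% of all shared peaks. CCAAT was found in 14.5% (13.5% to 15.5%) of upstream peaks, 11.3% of downstream peaks and 12.8% of all shared peaks. TATAAA was found in 3.68%, 1.82% and 2.65%. The E-box CACGTG was found in 3.92% of upstream peaks and 3.22% of downstream peaks, and ATGGCGG, the core of the YY1 site, in 2.68% and 4.33%.

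**Figure D4:**
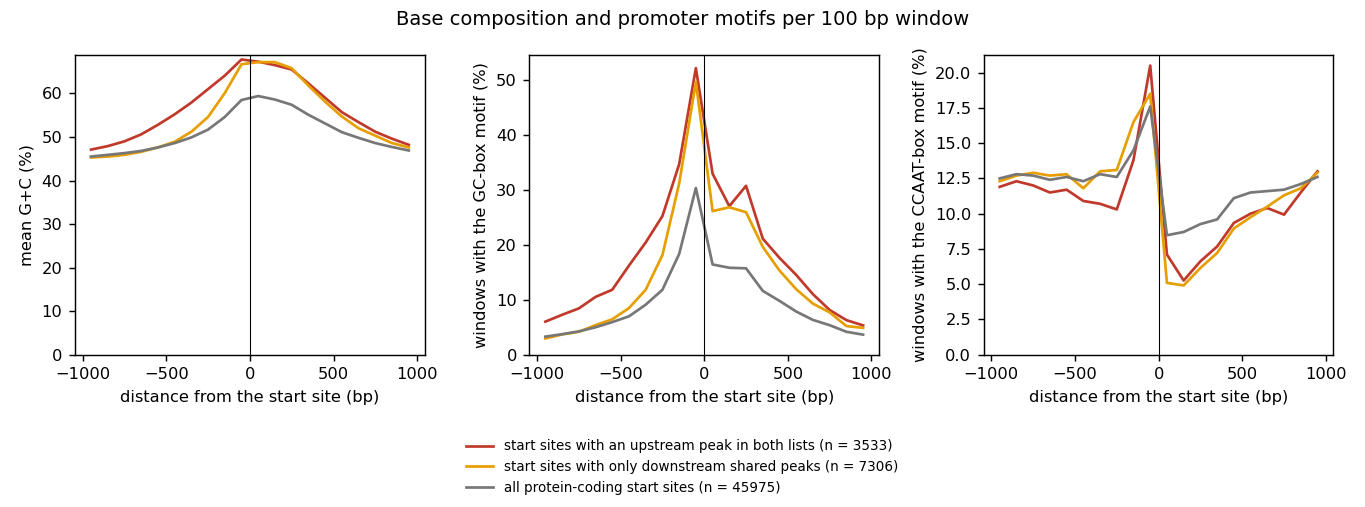
Mean G and C content and the share of start sites with a GC box or a CCAAT box, in percent, in 100 bp windows from 1000 bp upstream to 1000 bp downstream of the start site. Start sites with an upstream peak in both lists (red) kept a higher G and C content upstream than those with only downstream peaks (orange), at 57.9% against 51.2% between 400 and 300 bp, and all groups had the maximum of both motifs in the last 100 bp before the start site.

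The motif content changed with the position of the peak. In the DOP list GGGCGG was found in 52.7% of the peaks within 100 bp of the start site and in 16.6% of those 801 to 1000 bp upstream. CCAAT rose over the same distance from 10.4% to 23.6%, and TATAAA from 0.775% to 5.53%. These shares move with the base composition given above, and their relation to it was not tested. The 3 remaining motifs, the CRE TGACGTCA, the core of the NRF1 site, CGCATGCG, and the ETS site CCGGAAGT, were found in 0.245%, 0.334% and 0.803% of upstream peaks.

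Most upstream peaks lay outside annotated genes, and some start sites had a non-coding gene starting nearby. Of the DOP-treated peaks, 59.4% were centred outside annotated genes, 19.6% in an intron and 12.1% in an exon of a protein-coding gene, and 8.81% within a non-coding gene only. An opposite-strand non-coding gene started within 1 kb of a start site at 364 of 3495 genes with an upstream peak, or 10.4% (9.45% to 11.5%). Among the 5382 genes with a downstream shared peak and no upstream peak this share was 5.89% (5.29% to 6.55%). The untreated list gave 10.3% and 5.99%. Most of these non-coding genes were annotated as lincRNA. Among the highest-ranking examples in sequence of few copies, named after their values were seen, were Pkn2 with 9530052C20Rik and Ccdc41 with 4932415G12Rik. At Ccdc41 the peak centre lay within the non-coding gene, 434 bp upstream in the DOP list and 411 bp upstream in the untreated list, with scores of 1762.6 and 1722.0.

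A small group of genes had an upstream peak and no peak counted as downstream. Of the 3295 genes, 184 had no peak of either list within 1 kb downstream, or 5.58%. Each peak was counted only at its nearest start site, so an upstream peak could still lie inside the gene. Their upstream peaks ranked slightly below the others, with a median percentile of 46.9 in the DOP list, and were richer in G and C, with a median of 65.0% against 57.0% at the other genes. The highest-ranking, also named after their values were seen, were Dcun1d1, a neddylation factor, with scores of 1627.1 and 1653.5, and Irs2, the insulin receptor substrate, with 1573.6 and 1534.7. Fgfr1, a receptor of fibroblast growth factors, followed with 1448.1 and 1421.9, and Usf2, an E-box factor, with 1208.0 and 1231.0. At Irs2 the centre lay 886 bp upstream, within the non-coding gene 9530052E02Rik. At Dcun1d1 the centre lay in an intron of that gene, and at Fgfr1 and Usf2 in an exon of the gene. The score ratio at these 4 genes was between 0.981 and 1.03. At Dcun1d1 the untreated list had a further peak within 500 bp, and the summed ratio was 0.564.

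Gene lists were compared by the share of their genes with an upstream peak in both lists, beside 14.7% of all protein-coding genes. The lists were drawn up with earlier results of these data known, and genes with any acetylated promoter are more likely to have an upstream peak, so the share among genes with a shared peak within 1 kb was read beside 31.0%. The genes that mark cell types were read first, as positions of peaks and not as expression. Of the neural progenitor genes 9 of 29 had an upstream peak in both lists, namely Meis1, Meis2, Vim, Msi1, Msi2, Hes1, Hey1, Dlx1 and Id3, and 13 of 29 had a shared peak within 1 kb, Sox9, Notch1 and Notch2 among them. The other members had none within 1 kb of a start site, among them Nes, Sox2, Pax6, Gsx2 and Dlx2. Of the 13 with a shared peak, 69.2% had an upstream peak in both lists, and the difference from 31.0% was not tested. Of 30 genes of mature striatal neurons 1 did, Ebf1, and 4 had a shared peak within 1 kb. Of 26 glial, immune and endothelial genes 2 did, Pdgfra and Slc1a2, and of 21 mesenchymal and smooth muscle genes 2 did, Twist1 and Twist2, although 12 of the 21 had a shared peak within 1 kb, among them the collagen genes Col1a1 and Col3a1. Meis1, a homeobox factor, scored 945.0 in the DOP list and 908.0 in the untreated list, and Vim, the intermediate filament vimentin, 664.0 and 712.0. At Slc1a2, the astrocyte glutamate transporter, the scores were only 100.0 and 65.3.

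Immediate early genes, which respond rapidly to stimuli, and genes that act on histone acetylation had larger shares than all genes, and the difference was not tested. Of 29 immediate early genes 12 had one in both lists, or 41.4% (25.5% to 59.3%). Of the 24 with a shared peak within 1 kb they were 50%, beside 31.0% of all such genes. Fosl2, a partner of Jun, scored 1623.1 in the DOP list and 935.8 in the untreated list, with 2 and 3 peaks within 500 bp and a summed ratio of 1.13. Myc scored 796.0 and 890.0, Klf4 677.4 and 611.1, and Jun 551.0 and 722.2. At Jun and Klf4 the DOP list had 2 peaks within 500 bp and the untreated list 1, and the summed ratios were 1.56 and 1.53, so that Jun was lower by the single peak and higher by the sum. Of 28 histone deacetylase and acetyltransferase genes 11 had an upstream peak in both lists, or 39.3% (23.6% to 57.6%), and 44.0% of the 25 with a shared peak within 1 kb. Crebbp, the acetyltransferase CBP, scored 1853.3 and 1069.4 with 1 and 3 peaks within 500 bp, and the summed ratio was 0.883. Ep300 scored 622.0 and 531.0, Myst3 834.0 and 714.0, and Hdac7 584.9 and 1313.0, the last with 2 and 1 peaks and a summed ratio of 1.08.

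**Figure D5:**
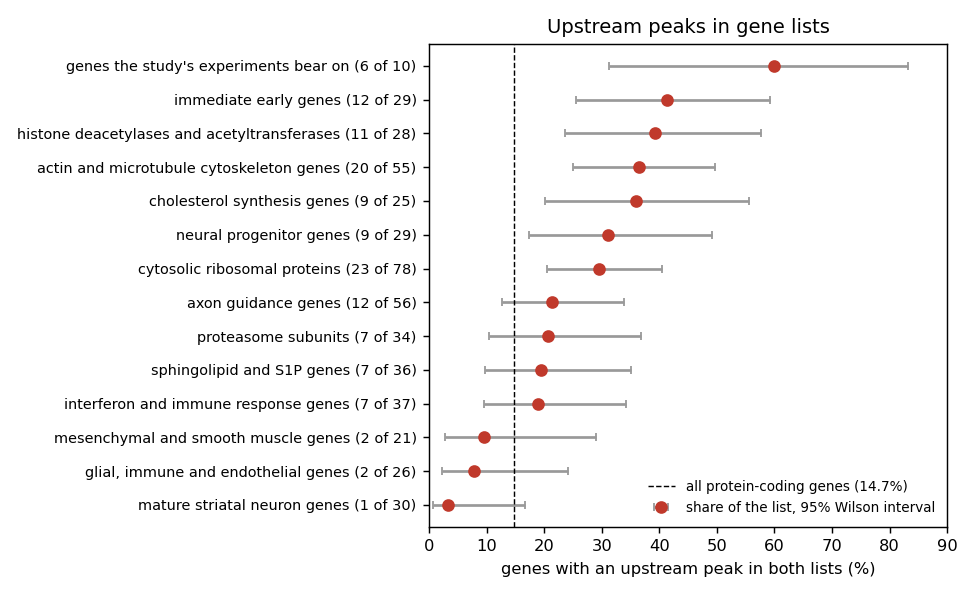
Percent of the genes of each list with an upstream peak in both peak lists, with 95% Wilson intervals for counting error, and the number of such genes out of those annotated. The dashed line is the 14.7% of all protein-coding genes. Immediate early genes reached 41.4% and mature striatal neuron genes 3.33%.

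Genes of the sphingolipid pathway, on which DOP acts, were near the background. Of 36 genes 7 had an upstream peak in both lists, or 19.4%, and 31.8% of those with a shared peak within 1 kb. Of their 11 pairs 7 scored higher in the DOP list, beside 72.0% of all upstream pairs. Scores at least 2-fold higher were found in 2 of the 11 pairs, beside 4.07% of all upstream pairs. Both were at Sgpl1, which encodes the SPL enzyme. One lay 12 bp upstream in the DOP list with a score of 2456.1, against 877.4 in the untreated list. The other lay 224 bp upstream of a second start site with 1257.7, against 493.0. Neither of these 2 pairs was among the 14 upstream pairs at least 2-fold higher by both the single and the summed score. In the third Sgpl1 pair, which ranked highest by the lower percentile, the centre lay 331 bp upstream in the DOP list with a score of 1692.7 and 335 bp upstream in the untreated list with 3218.7. The untreated score was thus the higher one in this pair and the lower one in the other Sgpl1 pairs. Both lists had 3 peaks within 500 bp of this centre, the summed ratio was 0.979, and 52.5% of the words of the peak occurred more than once in the assembly. Degs1, a dihydroceramide desaturase, scored 881.6 and 1389.4 with a summed ratio of 1.00. Sphk1, the kinase that makes sphingosine-1-phosphate, scored 712.0 and 706.0, and the ceramidase Asah1 721.0 and 654.0. Of 10 genes that the study's experiments bear on 6 had an upstream peak in both lists. Besides Sgpl1 they included Htt, which encodes huntingtin, with 540.0 and 373.5, Sp1, a factor that binds GC boxes, with 768.9 and 1450.7, and the actin gene Actb with 694.0 and 550.0. The summed scores within 500 bp gave the opposite direction at Htt, with a ratio of 0.882, and at Sp1, with 1.18.

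Counted over whole lists, the shares of cytoskeleton, cholesterol synthesis and ribosomal protein genes lay between those of the immediate early and the sphingolipid genes. Of 55 actin and microtubule genes 20 had an upstream peak in both lists, or 36.4% (24.9% to 49.6%), and 40.0% of those with a shared peak. The median log2 score ratio over their 24 pairs was 0.35, with 20 pairs higher in the DOP list and 4 lower, and 2 pairs reached 2-fold. Over all upstream pairs the median was 0.19, 72.0% scored higher in the DOP list and 4.07% were at least 2-fold higher. The difference from all upstream pairs was not tested. The profilin gene Pfn2 scored 1215.0 and 1123.0, Cap1 822.8 and 745.8, and Actr2 669.5 and 557.2. Of 25 cholesterol synthesis genes 9 did, or 36.0%, and all 25 had a shared peak within 1 kb. Insig1, which restrains the pathway, scored 584.1 and 632.0, and the enzyme genes Mvd and Fdft1 scored 498.7 and 485.0, and 474.0 and 385.3. At Mvd the untreated list had a second peak within 500 bp, and the summed ratio was 0.577. Of 78 ribosomal protein genes 23 did, or 29.5%, and 77 had a shared peak within 1 kb, of which 29.9% had an upstream peak, beside 31.0% of all such genes. Rpl7 scored 1423.0 and 1399.9, Rps15a 1033.3 and 1153.7, and Rps14 743.2 and 778.7. Over the 26 pairs of the ribosomal list the median log2 score ratio was 0.29, beside 0.19 for all upstream pairs. Of these, 19 scored higher in the DOP list and 7 lower, and 3 were at least 2-fold higher, beside 4.07% of all upstream pairs. The difference was not tested.

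The remaining lists were closer to all genes. Of 56 axon guidance genes 12 had an upstream peak, or 21.4%, led by Efnb2 with 720.5 and 805.4, and by Neo1, Sema4c and Ephb4. Of 34 proteasome genes 7 did, or 20.6%, and 23.3% of the 30 with a shared peak within 1 kb. Psmd2, Psmb3, Psmd11 and Psma6 were the highest. Psma6 rose from 175.6 in the untreated list to 689.0 in the DOP list, with 1 DOP and 2 untreated peaks within 500 bp and a summed ratio of 1.19. Of 37 interferon and immune response genes 7 did, or 18.9%. Ifnar2, a receptor chain of type I interferon, scored 1313.5 and 1075.9, and the interferon regulatory factors Irf2 and Irf9 and the protease Usp18 had score ratios between 0.970 and 1.13. Of the 7 pairs of the interferon list 5 scored higher in the DOP list and 2 lower, with a median log2 ratio of 0.29. In 1 of them the score was at least 2-fold higher, beside 4.07% of all upstream pairs. The difference was not tested. Over the lists with at least 7 pairs, the median log2 score ratio ran from 0.08 in the sphingolipid list to 0.61 in the proteasome list, beside 0.19 for all upstream pairs.

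The genes with the most upstream peaks had 2 or 3 start sites that each drew peaks. 1700081L11Rik, Dyrk1a, Luc7l2 and Pbx3 each had 5 DOP-treated and 4 untreated upstream peaks, spread over 2 or 3 start sites. Gsk3b had 4 in both lists, as did Klf10, Pde4d and Pdp1, of which it came first by name. At Dyrk1a, a protein kinase gene on chromosome 16, the DOP-treated centres lay 36, 157 and 157 bp upstream of 3 start sites with scores of 2232.6, 1678.5 and 1485.9, and 828 and 930 bp upstream with 277.0 and 571.8. The untreated list gave 1 peak 954 bp upstream with a score of 906.5 in place of the last 2. At Luc7l2, a splicing factor gene, the DOP list had centres 29 and 96 bp upstream with scores of 586.0 and 1164.0, where the untreated list had 1 centre 118 bp upstream with a score of 1640.0. The extra peak of the DOP list at Dyrk1a and Luc7l2 was thus a region given as 1 peak in the untreated list.

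The limits of the selection passed between neighbouring peaks. Bdp1 and Dusp15 in the DOP list were centred 1 bp upstream, with scores of 741.2 and 196.1, while Agbl5 and Agpat3 were centred on the start site itself, with 675.9 and 956.4, and were left out. At the far limit 2900060B14Rik and Ccdc85c were centred 999 bp upstream with 226.2 and 143.3. An Arid2 peak showed how narrow this limit is, as its untreated centre lay 1000 bp upstream with a score of 1038.0 and was taken, and its DOP-treated centre lay 1004 bp upstream with 983.0 and was left out. Sgms1 overlapped its untreated partner by 1 bp, and the nearest upstream peak that was left out, at Eif4a2, touched a peak of the other list without overlap. Asb7 was taken with the opposite-strand start site of Lins 1005 bp away, and Abca3 left out with that of Abca17 994 bp away.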

How the data were processed

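H3K9ac ChIP-seq was measured in STHdh Q111 cells. Per the study's methods, Bowtie 2 placed the single-end reads on mm9 and the authors used GPS for peaks, while the submitters' processing notes name BWA 0.7.10 and the track lines name GEM. How samples and the IgG control entered the call, and its threshold, are not given in the sources used here. The deposited peak score has no stated definition, and the depth is unknown, so intervals cover counting error only. Scores were used as ranks within a list and as ratios between matched peaks. The condition of a list came from its track line, and both samples of a condition share 1 list.

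Start sites were those of protein-coding transcripts in GENCODE vM1, and sequence was read from NCBIM37, which is mm9. Ties between start sites went to the first gene by name. Intervals are Wilson intervals at 95%. Repetition was the share of 24-base words found more than once in the assembly on either strand. No test was made, because no list has a replicate. Named genes were the 10 with the highest lower percentile of both lists, the 5 largest rises and 5 largest falls in percentile, the 5 with most peaks, up to 4 per gene list (some genes and 1 gene list are not reported here), the peaks at each limit and the 3 lowest and 3 highest in G and C among the top 50% of both lists. The 3 lowest lie in the repeats on chromosome 9. The members and lists were chosen with earlier results of these data known. The functions recovered 7 of 7 planted answers on 2000 simulated sites. Python 3.11.15, numpy 2.4.6, pandas 2.3.3, scipy 1.17.1 and matplotlib 3.10.9 were used.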

Additional observations from a re-analysis of the deposited data

How the results depend on the processing

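No paired analysis was possible because the samples of a condition share 1 list, which also left no replicate to leave out. The cause of the changes below was not tested, except that stricter rules leave fewer peaks by construction.

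Of 72 values under 14 alternatives, 58 stayed within their limit, which was 1.5 times for counts and a 95% interval for shares and medians. Centres within 50 bp left 2934 DOP-treated and 2964 untreated upstream peaks, with a median distance of 18 bp. The top 50% of each list left 1996 and 2026 peaks and 1556 genes, a median distance of 23.0 bp and a median G and C content of 63.5%. The median distance was 24.0 bp with a reciprocal overlap of at least 50% and 29.0 bp with the highest-scoring overlapping peak as partner. The median G and C content of matched peaks was 57.5%, 59.0% for a window of 1 to 500 bp and 56.0% with the outermost start sites. With only the outermost start site of each gene, 3362 DOP-treated and 3353 untreated upstream peaks remained. The share of pairs with the DOP-treated centre nearer the start site stayed between 47.2% and 48.9%. Summing scores within 500 bp, which was chosen after seeing the data as was a limit on repeated words, gave 95 pairs at least 2-fold higher and a median log2 ratio of 0.17. The depth behind both lists is unknown, and its part in the scores was not tested.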
